A study of Mus musculus with 1536 samples.

Results

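Trh, Crh and Sst encode the precursors of thyrotropin-releasing hormone, corticotropin-releasing hormone and somatostatin, and these 3 genes were followed through the serotonin neurons of the mouse raphe. They were taken as a named set from the 25522 genes with a read in at least 3 cells. The cells were single tdTomato-positive cells of C57BL/6J mice, 40 to 45 days old, that carried Sert-Cre and the Ai14 reporter, so that tdTomato marks any cell in which the serotonin transporter promoter has driven Cre at some time. There were 2 dissections, the principal dorsal raphe (pDR; 290 cells on 5 plates) and a wider one labelled all DR (709 cells on 11 plates), which by the study's methods also held the caudal dorsal raphe and the median raphe. No treatment was given and all mice had the same genotype. The labels name no animal, so each dissection is 1 sample, no p-value was computed. Beside most differences stands how many plates shared their sign, a plate being the SER code in the cell label. Plates may share mice, so these are not counts of independent replicates. All 999 cells held a read of Tph2, the enzyme of serotonin synthesis, and Slc6a4, the serotonin transporter, was read in all but 2. Those 2 cells were both Sst-positive and are described with Sst. Depth ran from 96834 to 2780443 reads per cell, with a median of 827283.

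Neuropeptides are cut from longer precursors in the secretory pathway. Prohormone convertases (Pcsk1, Pcsk2) cleave at pairs of basic residues, carboxypeptidase E (Cpe) trims the ends, and peptidylglycine monooxygenase (Pam) turns a final glycine into an amide. TRH carries such an amide and also a cyclised glutamine at its start, made by glutaminyl cyclase (Qpct). CRH is amidated too, whereas somatostatin is not. TRH and CRH are best known as hypothalamic drivers of the thyroid and adrenal axes and somatostatin as an inhibitor of growth hormone release, and all 3 also act as transmitters in the brain.

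The stretches of coding sequence that give the mature peptides show these differences, which the expression of the processing enzymes below refers to. Capitals mark the codons of the peptide with its amide-donating glycine codon where there is one, and lower case marks the neighbouring codons, including the basic pairs. The Trh precursor of 256 residues holds 5 copies of the peptide, each between pairs of basic residues, and 2 of them are shown. All are GENCODE M21 transcripts on the minus strand of mm10 (GRCm38), and each stretch is contiguous in the genome.
Trh (chr6:92242803-92242880): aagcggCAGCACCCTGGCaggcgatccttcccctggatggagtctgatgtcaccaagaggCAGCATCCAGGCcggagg
Crh (chr3:19693916-19694050): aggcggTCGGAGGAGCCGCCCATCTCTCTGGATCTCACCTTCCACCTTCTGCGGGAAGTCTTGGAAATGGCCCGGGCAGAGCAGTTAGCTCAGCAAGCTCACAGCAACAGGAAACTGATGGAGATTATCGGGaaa
Sst (chr16:23889732-23889779): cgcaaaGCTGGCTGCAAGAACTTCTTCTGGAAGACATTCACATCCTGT
The genes lie at chr6:92242061-92244650, chr3:19693401-19695396 and chr16:23889573-23890958. No other annotated gene overlaps any of them, so the counting without strand does not mix them with a neighbour.

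Trh was the most common of the 3 and Sst the least. A read of Trh was found in 138 of 999 cells (13.8%, 95% Clopper-Pearson interval 11.7 to 16.1%), of Crh in 80 (8.01%, 6.40 to 9.87%) and of Sst in 45 (4.50%, 3.30 to 5.98%). At least 1 of the 3 was read in 233 cells (23.3%). These intervals, like all others here, cover counting error only.

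In positive cells, Trh ran from 1.13 to 2339 CPM (the reads of a gene scaled so that each cell sums to 1000000) with a median of 96.2, Crh from 1.14 to 305 CPM with a median of 32.3, and Sst from 1.65 to 3115 CPM with a median of 51.6. Trh spanned all bands, with 13 cells under 10 CPM, 56 from 10 to 100, 56 from 100 to 1000 and 13 over 1000. Crh stayed low, with 16, 52 and 12 cells in the lower bands and 0 of 80 over 1000 CPM. Sst had 13, 14 and 15 cells in the lower bands and 3 over 1000 CPM. A single read was the only evidence in 3 Trh-positive, 5 Crh-positive and 2 Sst-positive cells. Per kilobase of exon, the median level in positive cells was 69.5 CPM for Trh, 24.5 for Crh and 71.6 for Sst.

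**Figure D1:**
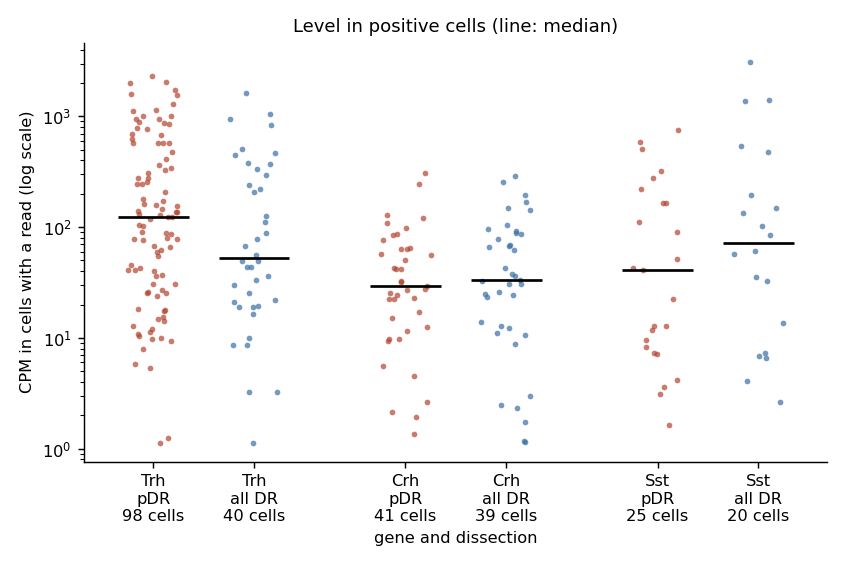
Level of Trh, Crh and Sst in CPM (log axis) in each cell with a read, by dissection, 1 point a cell, with the median as a line. Trh and Sst reach over 1000 CPM, whereas the highest Crh cell is at 305 CPM.

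Among 52 neuropeptide precursor genes, Trh ranked 12th by share of cells, Crh 15th and Sst 19th. By mean level per kilobase over all cells, Trh ranked 2nd (31.6 CPM per kb), after the granin Scg2, Sst 5th (15.6) and Crh 11th (3.45). A mean of this kind can rest on a few cells. The 10 highest cells held 37.7% of all Trh signal, 44.0% of Crh and 83.3% of Sst. For comparison, 12 hypothalamic and pituitary hormone genes were counted the same way. Of these, 5 had no read in any cell (0 of 999 cells, which allows a share of up to 0.3003%; Pmch, Npvf, Kiss1, Prl and Gh) and 9 were found in fewer cells than Sst, with Pomc (484 cells, up to 39.0 CPM), Ghrh (311 cells, up to 87.4 CPM) and Agrp (74 cells, up to 26.0 CPM) the exceptions. A gene with no source among the cells cannot show reads carried between wells. Cells under 10 CPM of Trh made up 1.41% of cells on the 11 plates that held a cell of 100 CPM or more and 1.03% on the other 5. For Crh these shares were 1.79% on 7 plates and 1.41% on the other 9, and for Sst 1.63% on 10 and 0.615% on the other 6. Positive cells were not deeper as a rule. The median was 798688 reads in Trh-positive and 838296 in Trh-negative cells, and positive cells had the higher median on 6 of 13 plates for Trh, 6 of 10 for Crh and 2 of 9 for Sst.

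Trh was concentrated in the pDR dissection. It was read in 98 of 290 pDR cells (33.8%, 28.4 to 39.6%) and in 40 of 709 all DR cells (5.64%, 4.06 to 7.60%). On the 5 pDR plates the share was 20.9, 22.0, 30.6, 39.3 and 46.2%, and on the 11 all DR plates 0 at the lowest, 5.63 at the median and 9.62% at the highest, so the plates did not overlap. Mean Trh was 120 CPM in pDR and 12.6 CPM in all DR cells, a log2 ratio of mean CPM plus 1 of 3.16, which only 3 of 25522 genes exceeded. In positive cells the median was 123 CPM in pDR and 52.7 CPM in all DR, and 11 of the 13 cells over 1000 CPM came from pDR.

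Crh and Sst were also read more often in pDR cells, and mean Sst was close in both dissections. Crh was read in 41 pDR cells (14.1%, 10.3 to 18.7%) and 39 all DR cells (5.50%, 3.94 to 7.44%). The pDR plates ran from 6.98 to 21.4% and the all DR plates from 0 to 18.1%, and the groups overlapped, since plates SER50 and SER52 stood at 18.1% and 11.7%. Mean Crh was 7.26 and 3.44 CPM, a log2 ratio of 0.90 that reached 1.34 without plate SER52, and the positive cells of the dissections had close medians (29.6 and 33.6 CPM). Sst was read in 25 pDR cells (8.62%, 5.66 to 12.5%) and 20 all DR cells (2.82%, 1.73 to 4.32%). The plates were barely apart, with the lowest pDR plate at 5.88% and the highest all DR plate at 5.77%. The log2 ratio of mean Sst was 0.10 (11.9 against 11.0 CPM) and had no stable sign, from -0.34 without plate SER40 to 0.63 without plate SER64, which held the highest Sst cell. Of all 25522 genes, 2.44% had a log2 ratio of 1 or more in size, as Trh did and Crh and Sst did not. The 5 pDR plates lay wholly above or below the 11 all DR plates in share for 1.9% of genes, among them Trh and Sst. Dissection, plate and mice cannot be told apart in these comparisons.

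**Figure D2:**
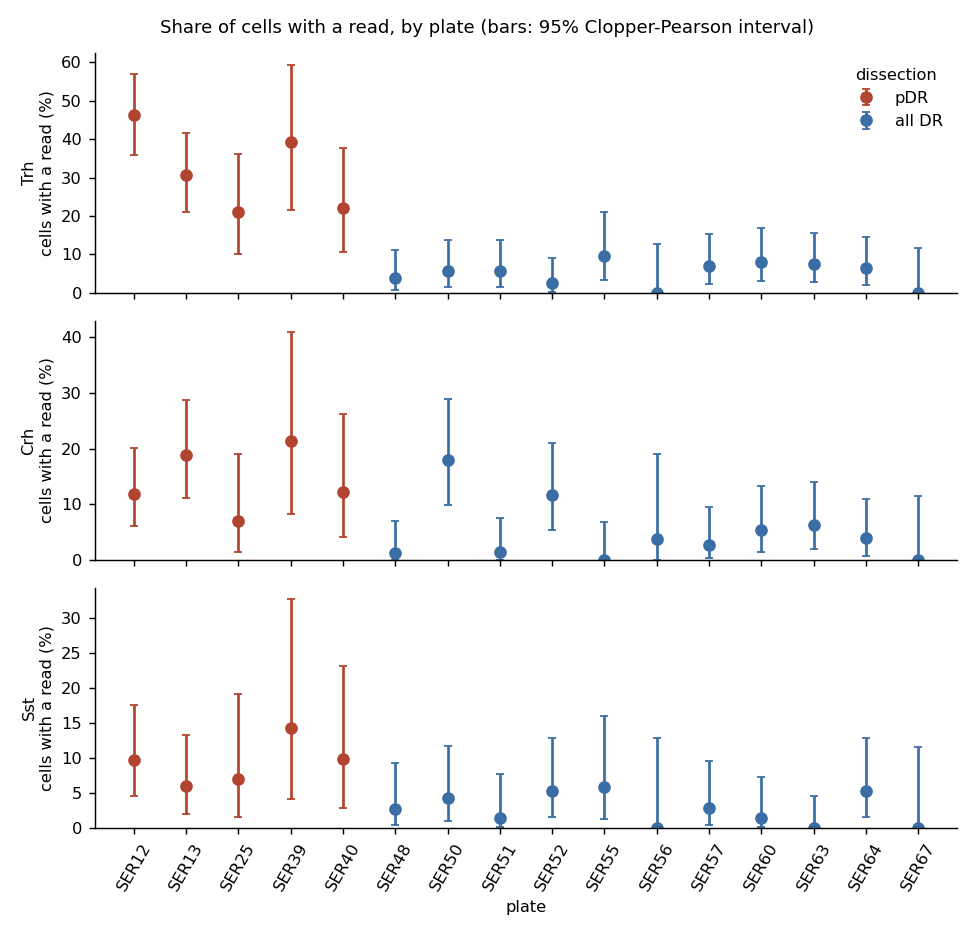
Share of cells with a read of each gene on the 5 pDR and 11 all DR plates (percent), with 95% Clopper-Pearson intervals. For Trh the pDR plates lie between 20.9 and 46.2%, all above the all DR plates, while for Crh the groups overlap.

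Cells with more than 1 of these peptides were few. Of the 233 positive cells, 28 (22 of them pDR) held 2 or more, with Trh and Crh together in 15, Trh and Sst in 13, Crh and Sst in 4 and all 3 in 2. Sst was read in 9.42% of Trh-positive cells (5.11 to 15.6%) and 3.72% of Trh-negative cells (2.56 to 5.21%) over all cells. Within plates this was 6.31 against 4.74% on average and higher in Trh-positive cells on 6 of 13 plates and lower on 6, whereas both genes were more common in pDR. Without plate SER12, 7 cells held both. Crh was read in 10.9% of Trh-positive and 7.55% of Trh-negative cells over all cells, but in 8.25 and 9.00% within plates (lower on 9 of 13 plates). Sst was read in 5.00% of Crh-positive and 4.46% of Crh-negative cells over all cells, and in 2.93 and 6.70% within plates (lower on 7 of 10 plates), and without plate SER13, 2 cells held both. Crh and Sst shared cells on 3 plates only, and Trh and Crh on 7. A plate with as few as 3 positive cells and none shared counts as lower wherever its negative cells held a read. The counts of lower plates therefore do not show avoidance, which was not tested.

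Where peptides shared a cell, no pair was high in both. In the 15 cells with Trh and Crh, Trh had a median of 21.0 CPM (5.30 to 2339) and Crh of 12.6 CPM (2.46 to 86.2). In the 13 with Trh and Sst the medians were 41.3 and 12.8 CPM. No cell held 100 CPM of 2 of the genes, and both members reached 10 CPM in 8, 6 and 2 cells of the 3 pairs. Only 69 cells reached 100 CPM of Trh, 12 of Crh and 18 of Sst. With so few, the absence of shared high cells does not show exclusion, which was not tested. The cell with the most Trh, 2339 CPM, held 12.6 CPM of Crh.

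The genes differed in the fast transmitters of the cells that held them. Slc17a8 encodes the vesicular glutamate transporter VGLUT3, and Gad1 and Gad2 encode the enzymes that make GABA. Trh followed Gad. A read of Gad1 or Gad2 was found in 126 of 138 Trh-positive cells (91.3%) and 25.7% of Trh-negative cells, with the share higher in Trh-positive cells on 13 of 13 plates. Slc17a8 was read in 22.5% against 71.8%, and higher in Trh-positive cells on 0 of 13 plates. Among cells with Gad reads and no Slc17a8, 48.3% held Trh (41.4 to 55.3%), among cells with both 17.6% (11.6 to 25.1%), and among cells with Slc17a8 alone 1.36% (0.550 to 2.79%). In pDR, 0 of 84 cells with Slc17a8 alone held Trh, which allows a share of up to 3.57%. The dissections still differed within the Gad-only cells, where Trh was read in 61.0% of 136 pDR cells (52.3 to 69.3%) and 25.3% of 75 all DR cells (16.0 to 36.7%).

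Crh and Sst were found in all these classes. Within plates, Slc17a8 was read in 70.4% of Crh-positive and 59.0% of Crh-negative cells (higher on 8 of 10 plates) and Gad in 50.0 against 40.9% (higher on 7 of 10). For Sst the averages were 60.9 against 58.5% for Slc17a8 and 50.8 against 43.8% for Gad, each higher on 5 of 9 plates. High and low cells can be set side by side. Of the 12 cells with 100 CPM or more of Crh, on 7 plates, 10 held Slc17a8, 2 held Gad2 and 0 held Gad1 (which allows up to 25.0%), whereas 41, 36 and 19 of the 68 lower Crh cells did. Of the 18 cells with 100 CPM or more of Sst, 12 held Slc17a8, 5 Gad2 and 6 Gad1, against 13, 18 and 15 of the 27 lower ones. The 3 cells over 1000 CPM of Sst, from 3 all DR plates, all held Slc17a8, and none held Gad1 or Gad2 (a count of 3 cells sets no limit on a share), while 21 and 23 of the other 42 held Gad1 and Gad2.

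Trh-positive cells were next compared with the negative cells of their own plate, on the 13 plates with at least 3 of each. Values are log2 ratios of mean CPM plus 1, given as the mean ± SD over plates. Over the 11517 genes with a mean above 2 CPM, 4.78% were past 1 in size, 146 upward and 404 downward, with a median of -0.08. On plates with few positive cells a sparsely read gene often has no read in them, which pulls this mean ratio down. How far this made the excess of downward genes, here and beside Crh and Sst, was not tested. Of the 8 measured genes of the TRH pathway, 1 was past 1 upward and 1 downward. The amidating enzyme Pam was higher by 1.39 ± 0.52 (811 against 246 CPM over all cells), on 13 of 13 plates. Under the threshold but also higher on 13 of 13 plates were glutaminyl cyclase Qpct (0.69 ± 0.24), the convertase Pcsk1 (0.60 ± 0.39) and Pgpep1, a peptidase that removes pyroglutamate (0.62 ± 0.31). Pcsk2 (-0.27 ± 0.36) and Cpe (-0.15 ± 0.21) were each lower on 10 of 13 plates, and Qpctl, a relative of Qpct, stood at 0.03 ± 0.59. Trhde, the ectoenzyme that degrades TRH, was at -1.47 ± 0.89, lower on 12 of 13 plates, with a read in 0.725% of Trh-positive and 18.8% of Trh-negative cells. The receptors were nearly unread. Trhr was read in 0 of 138 Trh-positive cells, which allows up to 2.17%, and Trhr2 in 1.45%.

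Outside its own pathway, Trh parted from several peptide and receptor genes. Adcyap1, the precursor of PACAP, was read in 3.62% of Trh-positive and 42.3% of Trh-negative cells and was at -3.55 ± 1.38, lower on 13 of 13 plates. The CRH receptor Crhr2 was at -3.19 ± 1.83 (lower on 13 of 13) and the somatostatin receptor Sstr2 at -1.05 ± 1.17 (lower on 12 of 13). Sstr2 was low throughout, at 3.03 against 6.31 CPM over all cells, with a read in 22.5 against 29.8% of cells. It stood at -0.44 on the pDR plates and -1.44 on the all DR plates. Of the transmitter genes, Gad1 was past 1 upward (1.75 ± 2.84, higher on 10 of 13), Slc17a8 downward (-3.90 ± 2.37, lower on 12 of 13) and Gad2 was short of it (0.77 ± 1.39, higher on 10 of 13). None of the 14 measured serotonin genes was past 1. Fev, a transcription factor of serotonin neurons, was nearest (0.75 ± 0.20, 13 of 13), Slc6a4 stood at 0.40 ± 0.14 (13 of 13) and Tph2 at 0.02 ± 0.14. Among 18 measured genes of precursor processing and secretory granules, Pam was the 1 past the threshold. The differences in Pam, Qpct, Pgpep1, Adcyap1 and Crhr2 held the same direction on all 5 pDR plates and all 8 all DR plates. Pdyn, the dynorphin precursor, did not, at 1.56 in pDR and -0.86 in all DR plates. The 69 cells with 100 CPM or more of Trh held Pdyn less often than the 69 lower ones (37.7 against 65.2%) and also Crhr2 (13.0 against 31.9%) and Crh (5.80 against 15.9%), while Gad2 was close (89.9 against 84.1%).

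**Figure D3:**
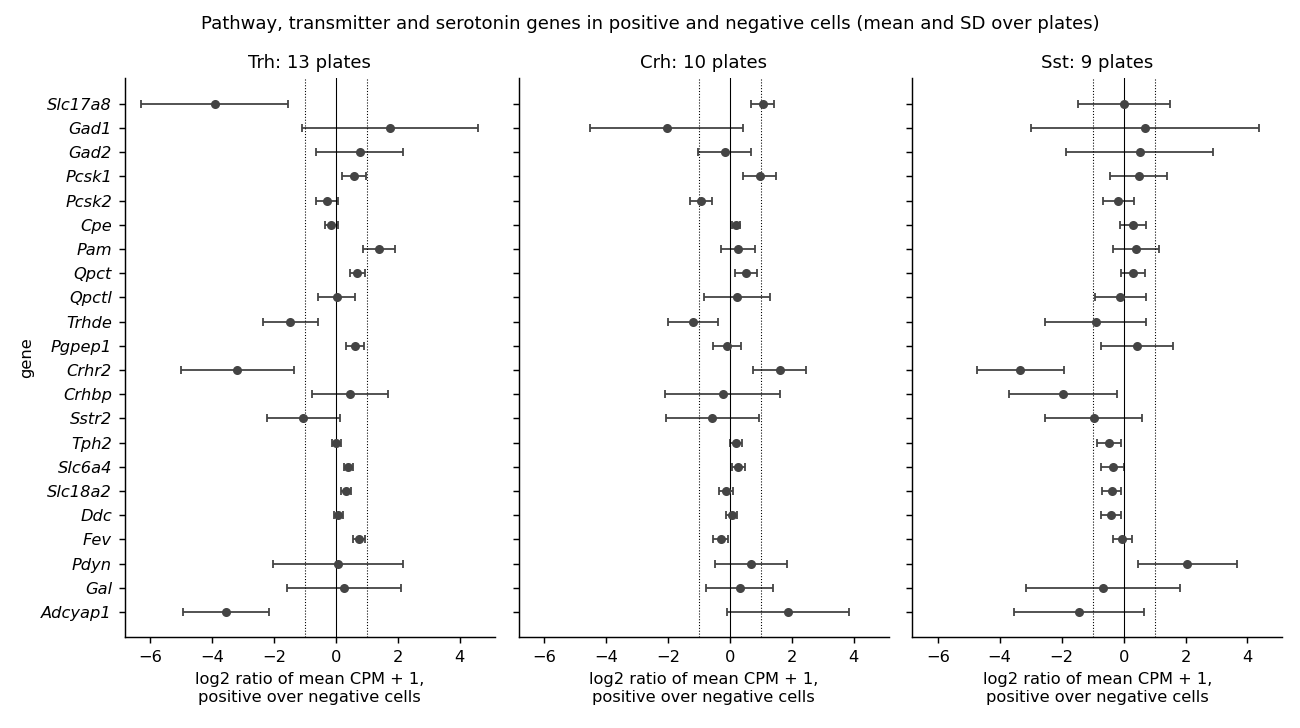
Log2 ratio of mean CPM plus 1 in positive over negative cells of the same plate for chosen pathway, transmitter, serotonin and peptide genes, as the mean and SD over plates; dotted lines mark 1 in size. Pam stands at 1.39 beside Trh, Crhr2 at 1.62 beside Crh and at -3.33 beside Sst.

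Crh-positive cells, on 10 plates, were past 1 in size for 3.14% of genes. Crhr2 was among them, higher by 1.62 ± 0.86 on 10 of 10 plates, with a read in 72.5% of Crh-positive and 37.9% of Crh-negative cells. It encodes a receptor of the CRH family and was the 1 of 2 measured CRH pathway genes past the threshold. The other was the binding protein Crhbp (-0.23 ± 1.85, lower on 6 of 10 plates). Crhr1, the main CRH receptor of the pituitary, had a read in 0 of 80 Crh-positive cells, which allows up to 3.75%, and in 1.09% of the rest. Slc17a8 was higher by 1.06 ± 0.38 (10 of 10 plates). The convertases went opposite ways, Pcsk1 at 0.97 ± 0.53 and Pcsk2 at -0.94 ± 0.36, each in 1 direction on 10 of 10 plates and both short of the threshold. Pam, the amidating enzyme, stood at 0.27 ± 0.55 and was higher on 5 of 5 pDR plates and 2 of 5 all DR plates. Adcyap1 was at 1.88 ± 1.97, higher on 9 of 10 plates. Gad1 was at -2.04 ± 2.48, lower on 6 of 10 plates, although it was read in 23.8% of Crh-positive and 12.7% of Crh-negative cells over all plates. Trhde stood at -1.19 ± 0.80 and Qpct at 0.54 ± 0.35. Of 18 processing and granule genes, 0 were past 1. High and low Crh cells are set side by side as a description only. Nos1, Crhr2 and Adcyap1 were chosen with values in view. Nos1 and Crhr2 are also among the genes most correlated with Crh in these same cells, so their counts are no separate support. Cells of all plates were pooled, and 5 of the 12 high cells came from pDR. Of the 12 cells with 100 CPM or more, 11 held Crhr2, 11 held Nos1, the neuronal nitric oxide synthase, and 11 held Adcyap1, against 47, 25 and 23 of the 68 lower cells. Trh and Sst were read in 0 of the 12 and in 15 and 4 of the 68.

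The Sst-positive cells included some with low levels of serotonin genes. The only 2 of 999 cells with no read of Slc6a4 both held Sst, at 481 and 134 CPM. One, on plate SER48, had 1760 detected genes, 16.6 CPM of Tph2 and 249 CPM of the endothelial gene Cldn5. The other, on plate SER55, had 714 CPM of Tph2 and 61351 CPM of Mbp, a myelin gene of oligodendrocytes. The summed level of 10 oligodendrocyte genes, 7 of them read in Sst-positive cells, ran from 30.1 to 79858 CPM in Sst-positive cells (median 99.7) and from 0 to 15607 CPM in the rest (median 108). Without these 2 cells the highest was 633 CPM. Mag, a defining marker, was read in 0 of 45 Sst-positive cells, which allows up to 6.67%. The 8 microglial, 7 endothelial and 12 other neuronal markers had a summed median of 0 CPM in the cells positive for each peptide. The oligodendrocyte sum had a median of 114 CPM in Trh-positive cells (2.07 to 3037) and 94.7 CPM in Crh-positive cells (0 to 561). Of 8 astrocyte markers, 3 were measured, and beside Trh these were Slc1a2 at -2.55 ± 1.28 (lower on 13 of 13 plates), S100b at -0.80 ± 1.64 (lower on 8 of 13) and Aldoc at 0.78 ± 0.34 (higher on 13 of 13). The part of these markers in the results was not tested. Without the pair, Sst was read in 4.31% of cells, at a median of 43.2 CPM, and the dissection log2 ratio was 0.20. Most contrasts with negative cells in the next paragraph are given with and without it. The Tph2 medians of high and low Sst cells and the transmitter classes above are given only with it.

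Against the negative cells of their plates, on 9 plates, Sst-positive cells were past 1 in size for 7.74% of genes, 65 upward and 826 downward (median of all genes -0.18), and for 6.77% on 8 plates without the 2 cells. The downward pull on sparsely read genes applies here too. Crh, for example, stood at -1.49 without the 2 cells, with 4.37 against 4.57 CPM over all cells. The downward excess is thus not a measure of lost expression. Crhr2 was at -3.33 ± 1.42, lower on 9 of 9 plates (-3.18 without the 2 cells), the reverse of its direction beside Crh. Crhbp was at -1.96 ± 1.74 (-2.20 without them). Of the 18 processing and granule genes, 2 passed 1, both downward, the convertase Pcsk4 (-1.30 ± 1.47) and the carboxypeptidase Cpd (-1.11 ± 1.48). Without the 2 cells Pcsk4 stood at -1.14, lower on 7 of 8 plates, with 4.33 against 5.47 CPM over all cells. Cpd was then short of the threshold at -0.86, lower on 6 of 8 plates, with 11.8 against 12.4 CPM. Pdyn was at 2.06 ± 1.60, higher on 7 of 9 plates (1.84 without them, 6 of 8), with 203 against 39.9 CPM over all cells, and the 3 cells over 1000 CPM of Sst all held it. The somatostatin receptor Sstr2, the 1 measured gene of the SST pathway, stood at -0.97 ± 1.57 (-0.76 without them). None of 14 serotonin genes passed 1. Tph2 was at -0.47 ± 0.40 (9 of 9 plates), Ddc at -0.41 ± 0.33 (9 of 9) and the vesicular transporter Slc18a2 at -0.39 ± 0.30 (9 of 9). Without the 2 cells these were -0.38, -0.33 and -0.32, each lower on 8 of 8 plates. The 18 cells with 100 CPM or more of Sst, which include that pair, had a median of 4989 CPM of Tph2, the 27 lower ones 7839 CPM and the Sst-negative cells 9563 CPM.

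Genes were then ranked by how closely they followed each peptide within plates, as the Pearson correlation of ln(CPM+1) over 999 cells after the plate means were removed. Cells of a plate share processing, and their depth differs, so these values are a description. For Trh, 0.408% of 8086 genes with a mean above 10 CPM reached 0.3 (33 genes). Asb4, an ankyrin repeat and SOCS box gene, led (r = 0.61, plates 0.38 to 0.83), followed by the intermediate filament gene Prph (0.53), the secreted factor gene Fam19a2 (0.52), the convertase Pcsk6 (0.52), Wfdc12 (0.51), the sialyltransferase St8sia2 (0.48), the glypican Gpc5 (0.45), Gad1 (0.43), Pam (0.41) and Il4ra (0.40). Of these 10, all but Gad1 were positive on 13 of 13 plates, and Gad1 on 10. Asb4 was read in 88.4% of Trh-positive and 20.0% of Trh-negative cells, at a mean of 419 and 30.5 CPM, and its r was 0.66 in pDR and 0.57 in all DR cells. Lowest were the glutamate receptor Grm7 (-0.52), the synaptic organizer Cbln2 (-0.49), Ntm (-0.44), Capn2 (-0.42) and Rab3c (-0.41), each negative on 13 of 13 plates. Cbln2 was read in 15.2% of Trh-positive and 85.6% of Trh-negative cells.

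No gene followed Crh or Sst so closely. For Crh, 0.0124% of 8087 genes reached 0.3, which was Nos1 alone (0.31, read in 45.0% of Crh-positive and 19.0% of Crh-negative cells). It slipped under 0.3, leaving 0 genes, without plate SER39, SER52, SER57 or SER60. After it came Galnt18 (0.29), Pgm2l1 (0.29), Nsg2 (0.26), the receptor tyrosine kinase Kit (0.26), Syt4 (0.25), Crhr2 (0.25), Enpp2 (0.25), Unc5d (0.24) and Rgs2 (0.24), and the lowest were Tmem176b (-0.25), Brinp1 (-0.24), Phactr2 (-0.24), Gpc3 (-0.24) and Arhgap36 (-0.23). For Sst, 0% of 8086 genes reached 0.3. The highest were Rgs10 (0.22), Resp18 (0.22), Tent5a (0.21), Nptx1 (0.20), Rprm (0.20), Plxna4 (0.19), Lrpap1 (0.19), Ret (0.18), Ildr2 (0.18) and Kcnab1 (0.18). The lowest were Ldha (-0.31), Slc6a4 (-0.31), Cplx2 (-0.31), Itgb1 (-0.30) and Opcml (-0.29), and without the 2 cells that lack Slc6a4 these became -0.20, -0.18, -0.24, -0.25 and -0.22. The order at the top also changed without them, with Resp18 first (0.26) and Tmem59l, at 0.14 with all cells, next (0.23). In genes read in so few cells, correlations of this size are weak and are listed only by the rule. The peptides did not follow each other, at -0.07 for Trh and Crh, -0.01 for Trh and Sst and -0.02 for Crh and Sst.

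**Figure D4:**
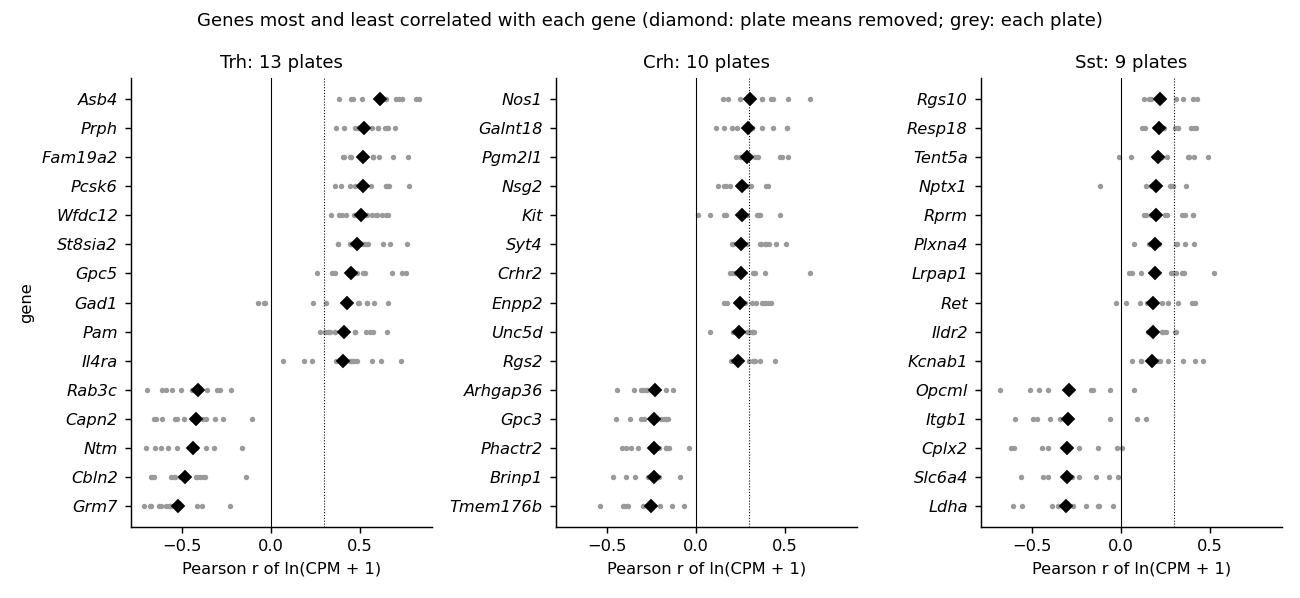
Within-plate Pearson r of ln(CPM+1) with each peptide gene for the 10 highest and 5 lowest genes, with all plates together as diamonds and each plate as a grey point; the dotted line marks 0.3. Asb4 reaches 0.61 with Trh, whereas the highest values are 0.31 for Crh and 0.22 for Sst.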

How the data were processed

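Smart-seq2 libraries of single sorted cells were analysed, 290 of 480 labelled pDR and 709 of 1056 labelled all DR cells; the other 537 were not analysed here. The authors sequenced the libraries (bcl2fastq 2.19.0.316), aligned reads to mm10 with STAR 2.6.1a, counted them with HTSeq 0.11.2 without strand, removed Y-linked genes and deposited CPM. No unique molecular identifiers were used, so reads are not molecules. Of values above 0 and up to 1000 reads, 100% came out as whole reads within 0.1 read. All cells had at least 300 genes and 50000 reads. No doublet caller was run on the singly sorted cells. A gene was called expressed at 1 read or more. Ratios are of mean CPM plus 1. Lengths and coordinates are from GENCODE M21, whose version may differ from the authors' annotation. Named genes are the 3 peptides, the genes of the pathway, transmitter, serotonin and marker lists, and, for each peptide, the 10 highest and 5 lowest correlations with that sign on at least 3 in 4 plates tested. The members and lists were chosen with earlier results of these data known, and Nos1, Crhr2 and Adcyap1 in high Crh cells were chosen with values in view. Plates needed 3 positive and 3 negative cells. Labels name no animal, so no test was made. The steps recovered most planted changes in simulated data, which were larger than the threshold and set in a share of cells near that of Trh. The simulated marker was present or absent, without a level. Smaller changes and markers as rare as Crh or Sst were not simulated. Alternatives were 5 reads or 10 CPM, cells thinned to 250000 reads (9 shallower cells left out, 1 pDR and 8 all DR), other pseudocounts, ranks, filters and plates left out. Analyses used Python 3.11.15, NumPy 2.4.6, pandas 2.3.3, SciPy 1.17.1 and matplotlib 3.10.9. Some listed genes are not reported here.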

Additional observations from a re-analysis of the deposited data

How the results depend on the processing

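No paired analysis was possible because the labels number no replicates and no test was made. Thinning to 250000 reads (cells below that left out) left the shares at 13.4% for Trh, 7.475% for Crh and 4.14% for Sst. With 10 CPM or more as the call, Sst fell to 3.20% of cells and the pairs to 8 cells (Trh and Crh), 6 (Trh and Sst) and 2 (Crh and Sst). The dissection log2 ratio of Trh was 2.53 with a pseudocount of 10 CPM. The number of genes correlated at 0.3 or more was 71 for Trh and 2 for Crh with ranks, 3 for Crh with ln(CPM+10), 82 and 0 with plate means kept, and 67, 5 and 2 for Trh, Crh and Sst among genes over 2 CPM. Slc6a4 with Sst went from -0.31 to -0.05 with ranks. With each plate left out in turn, the Trh share ran from 10.5% (without SER12) to 14.7%, the Crh gene count from 0 to 3, the Trh and Sst pair from 7 (without SER12) to 13 cells, the Crh and Sst pair from 2 (without SER13) to 4 cells, the Crh dissection ratio from 0.69 to 1.34 (1 or more without SER25, SER40, SER50 or SER52), and the Sst dissection ratio from -0.34 to 0.63, with a sign below 0 without SER39 (-0.04), SER40, SER51 (-0.03), SER57 (-0.01), SER60 (-0.05) or SER63 (-0.06). The cause of these moves was not tested. The other alternatives moved no value past its counting interval, a factor of 1.5 or the spread over plates. Leaving out the 2 cells without Slc6a4 was chosen after seeing the data. Sst rests on 45 cells, which limits its plate values.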

Other observations

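Pdyn was read in 51.4% of Trh-positive, 65.0% of Crh-positive and 55.6% of Sst-positive cells, against 30.4, 30.6 and 32.3% of the respective negative cells over all plates. Within plates, the log2 ratio of Pdyn was 0.07 ± 2.10 beside Trh (higher on 7 of 13), 0.69 ± 1.17 beside Crh (7 of 10) and 2.06 ± 1.60 beside Sst (7 of 9). Gal, the galanin precursor, was read in 55.8% of Trh-positive, 52.5% of Crh-positive and 33.3% of Sst-positive cells, against 33.0, 34.7 and 36.3%. Its log2 ratio within plates beside Trh was 0.26 ± 1.85, with 1.79 on the pDR plates (higher on 5 of 5) and -0.69 on the all DR plates (higher on 3 of 8). Beside Crh it was 0.32 ± 1.08, with -0.48 on pDR plates and 1.13 on all DR plates (higher on 5 of 5). Penk, the enkephalin precursor, was read in 15.0% of Crh-positive and 3.16% of Crh-negative cells, with a log2 ratio within plates of 0.63 ± 1.30 (higher on 6 of 10).

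Of 12 measured immediate-early genes and 10 measured genes of cAMP and CREB signalling, none was past a log2 ratio of 1 over all plates for any of the 3 peptides. The nearest were 0.84 for Nr4a1 beside Crh, 0.82 for Npas4 beside Sst and -0.98 for Atf1 beside Sst. Some passed 1 in a part of the cells. Of all 11517 genes, 6.77% did so for Sst without the 2 cells that lack Slc6a4. For Trh 4.01% did on pDR and 7.42% on all DR plates, and for Crh 5.24 and 4.88%. Atf1 beside Sst was at -1.19 without the 2 cells that lack Slc6a4 (lower on 8 of 8 plates). On pDR plates, Fos (1.04) and Jun (-1.03) beside Crh and Junb (-1.09) beside Trh passed it, each with that sign on 4 of 5. Over all pDR cells, though, mean Junb was 16.7 CPM in Trh-positive and 14.9 CPM in Trh-negative cells. On all DR plates, Nr4a1 (1.32, higher on 5 of 5) beside Crh and Pde4b (-1.11) beside Trh did.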
